A study of Mus musculus with 2 samples.

Results

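The genes described here carry out Fanconi crosslink repair, homologous recombination, end joining and the DNA damage checkpoint. They were followed in LSK cells, the bone marrow cells without lineage markers that carry Sca-1 and c-Kit and hold the blood stem cells and early progenitors. The members came from a list of 39 genes and were found on the array by gene name, with Fanci found through its RefSeq accession because the array design gives it a clone name. Of the 39 genes, 36 had a probe (68 probes in 86 spots, of 41174 probes in 43379 spots in all), and Atr, Fancf and Mdc1 had none by this rule. All 36 were well above background on both arrays by at least 1 probe, so none was lost to the filter on dim probes.

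The study set PAD4-deficient LSK cells (labelled PAD4-/-) against wild-type LSK cells (labelled WT), 1 array each, both from mice of the C57BL/6 strain. PAD4, encoded by Padi4, turns arginine residues of histones and other proteins into citrulline. The cells were sorted by flow cytometry. The labels do not state the age or sex of the mice, which part of Padi4 was deleted, or whether animals were pooled. Sex-linked transcripts differed between the arrays, with values given beside Fancb below. With 1 array per group no difference has a replicate check, no test between the groups was possible, and the number of arrays limits the precision.

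In the Fanconi pathway a core complex recognises a DNA crosslink and attaches ubiquitin to the FANCD2 and FANCI pair, which then brings in nucleases and the recombination proteins. BRCA1, PALB2 and BRCA2 act together in recombination, which repairs a break by copying the intact sister strand. The kinases ATM and ATR, with CHEK2 and CHEK1 below them, stop the cell cycle while breaks or stalled forks are repaired. Inherited loss of the Fanconi pathway causes bone marrow failure, and blood stem cells of mice that lack it are sensitive to crosslinking agents.

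On both arrays 64.1% of the probes (PAD4-deficient) and 63.9% (wild-type) were well above background. The brightest Padi4 probe had a processed signal of 2670 on the PAD4-deficient array and 12879 on the wild-type array, a log2 difference of -2.22 (scanner error 0.20). The processed signal is the brightness of a spot after the spatial and multiplicative detrending of the scanner software. Differences are PAD4-deficient minus wild-type on the log2 scale, after each array was divided by its 75th percentile (786 for PAD4-deficient, 814 for wild-type), a step that adds 0.05 to every raw log2 ratio. The scanner error given with a difference is the error that the scanner software reports for a spot, averaged over the spots of a probe. It does not cover the variation between mice. For bright genes it was near 0.20 throughout, so there it acts as a nearly fixed cut. Over probes printed in several spots, the typical spread of a difference between repeated spots was smaller, 0.08. Kit and Ly6a, which encode the sort markers c-Kit and Sca-1, were well above background on both arrays and differed by 0.07 and -0.14, each within its error of 0.20. The list of 10 sort and stem cell genes they belong to had a median of -0.11 and summed signals of 141011 on the PAD4-deficient array and 156209 on the wild-type array. Its genes beyond their scanner errors were Flt3 (-0.67), Procr (-0.38) and Slamf1 (0.47), and Flt3 was the one past 1.5-fold. The arrays differed in transcripts of other blood cells: 8 of 13 measured erythroid genes, 7 of 12 B and plasma cell genes and 5 of 16 neutrophil and monocyte genes reached 1.5-fold on the side of the PAD4-deficient array. Their summed signals were 31793, 27220 and 235522 on the PAD4-deficient array, against 30513, 17293 and 176412 on the wild-type array. Of 15 listed lineage marker genes, 11 were on the array and 9 were measured, with 2 past 1.5-fold upwards. Their median difference was 0.30, 6 of 9 were above 0, and beyond their scanner errors 5 were higher and 2 lower. Median signals were 126 on the PAD4-deficient array and 108 on the wild-type array. Summed signals, in which bright genes weigh most, were 12535 on the PAD4-deficient array and 13304 on the wild-type array. In bulk samples more cells of a type and more RNA per cell cannot be told apart, and the part of these differences between the sorted populations in the values below was not tested.

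No repair or checkpoint gene reached 1.5-fold by its brightest probe. None of the 36 was at least 1.5-fold higher, where 2.88% of all 17020 measured genes were. None was at least 1.5-fold lower, where 1.87% of all genes were. At such shares few or none of 36 genes would pass, so these counts do not set the members apart from all genes. The share higher was 6.02% among genes with signals under 200 on both arrays, and 3 members were that dim. No member reached 2-fold, which 1.01% of all genes did upwards and 0.476% downwards. The median difference was 0.06, with quartiles of 0.0041 and 0.20 and the extremes at -0.30 (Fance) and 0.55 (Lig4). Over all measured genes the median was 0.02, with quartiles of -0.12 and 0.15. Differences of 28 of the 36 genes (77.8%) were above 0, against 55.0% of all genes, and with arrays set to equal medians, which lowers every gene by 0.06, the count was 20 of 36 (55.6%), against 43.6% of all genes in that setting. A log2 difference of 0.32 or more was seen for 5 genes (13.9%, against 8.86% of all genes), and none was lower by that much (8.05% of all genes). The 5 were Lig4, Rad1, Chek2, Wrn and Chek1. With arrays set to equal medians 2 genes passed 0.32 upwards, Lig4 at 0.49 and Rad1 at 0.35, and Fance passed it downwards at -0.36, where 6.62% of all genes passed it upwards and 10.9% downwards. With normexp background correction at an offset of 50 the count was 3 higher and none lower, against 4.39% and 4.58% of all genes.

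**Figure D1:**
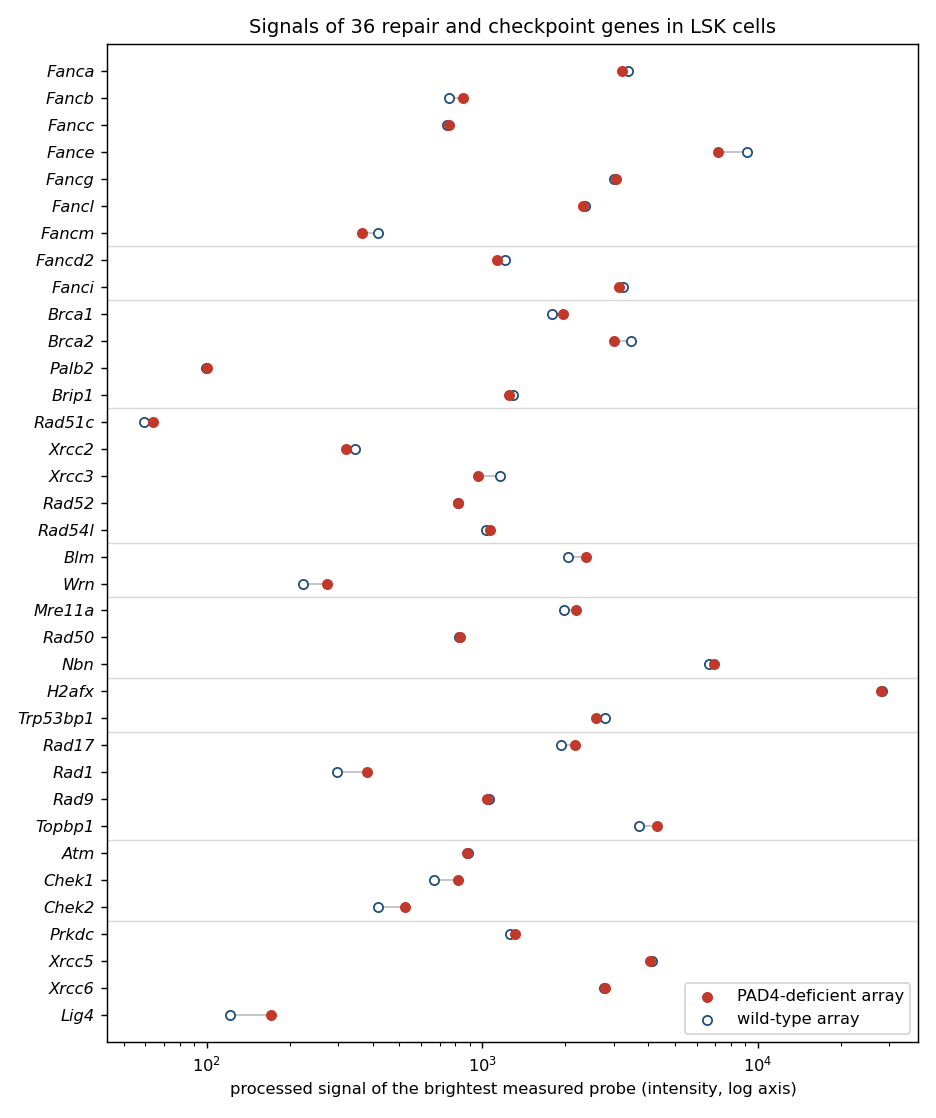
Processed signal (intensity, log axis, before the arrays were scaled) of the brightest measured probe of each of the 36 genes, filled for the PAD4-deficient array and open for the wild-type array, with 1 array per group. The 2 marks of most genes nearly coincide, and the widest gaps are those of Lig4 (171 PAD4-deficient, 121 wild-type), Rad1 (381 PAD4-deficient, 298 wild-type) and Fance (7140 PAD4-deficient, 9112 wild-type).

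The plot of signals shows each gene on its own row, and since probes bind their targets with different strength, only the 2 marks of a row can be compared. A second view sets each difference against its scanner error. By that error 9 of the 36 genes were higher by more than the error, against 16.1% of all measured genes, and 2 were lower by more than the error, against 14.1%. Of the members beyond their error 81.8% were higher, while over all measured genes 2733 were higher and 2396 lower by more than the error. With arrays set to equal medians 7 were higher and 3 lower (70.0% higher), against 10.9% and 19.5% of all genes in that setting, since Fancb (0.17) and Rad17 (0.16) no longer passed their errors and Brca2 (-0.22) did.

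**Figure D2:**
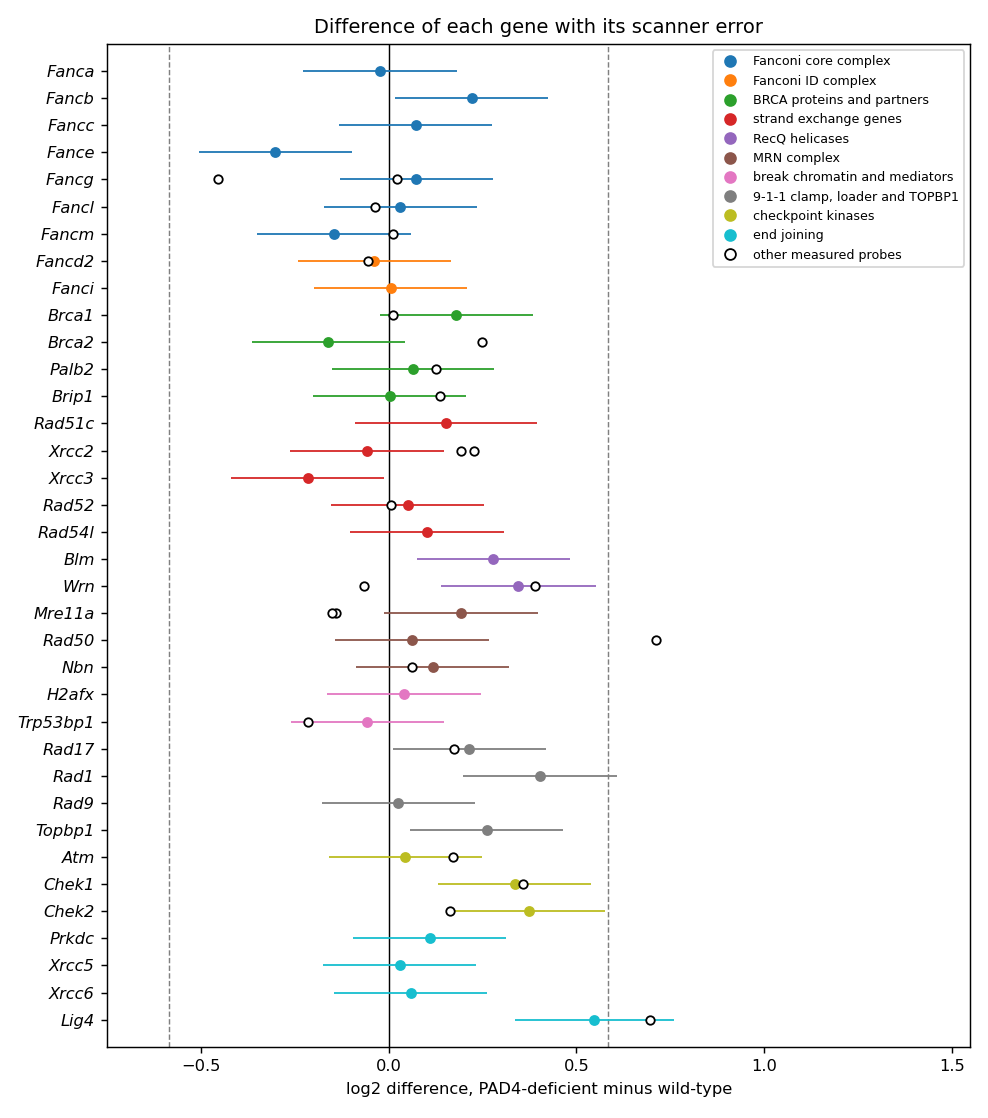
Log2 difference (PAD4-deficient minus wild-type) of the brightest measured probe of each gene, coloured by role, with its scanner error as bars, the other measured probes as open circles and 1.5-fold as dashed lines. Every filled point lies between the dashed lines, with Lig4 (0.55) nearest to them, while the second probes of Lig4 (0.70) and Rad50 (0.71) lie beyond 1.5-fold.

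The promoters of the members were read for the E2F-type run, the letters bound by the E2F factors of S phase genes. The table of RefSeq promoters (GRCm38.p6) held 31 of the 39 genes, and the first entry of each gene was used, with the 250 bases before the gene start. The run has the form TTCCCGC in its simplest version. The other forms searched were TTCGCGC and also TTGCCGC and finally TTGGCGC, and each was searched on both strands. It was present in 12 of 31 member promoters (38.7%), against 7.97% of 27025 genes in the table and 10 of 23 G1/S promoters (43.5%). On either strand, the box CCAAT was present in 16 of 31 (51.6%), against 34.5%, and the run TTTGAA in none of 31, against 16.3%. These shares describe letters in a window, and base composition differs between promoters. The 10 members with the E2F-type run and a value had a median difference of 0.15 (range -0.16 to 0.55), and the 18 members without it 0.05 (range -0.30 to 0.40), so the ranges overlapped. The stretches of 100 bases below are shown because they belong to 3 members with differences above their scanner error and to Brca2, with a difference below 0; they read 5′ to 3′ on the strand of the gene, and capitals mark the run.
Lig4, chr8:9977709-9977808, minus strand: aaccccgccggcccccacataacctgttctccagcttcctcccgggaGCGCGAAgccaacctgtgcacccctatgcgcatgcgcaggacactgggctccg
Chek2, chr5:110839784-110839883, plus strand: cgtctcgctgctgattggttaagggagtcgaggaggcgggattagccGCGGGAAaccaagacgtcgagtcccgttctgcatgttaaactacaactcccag
Topbp1, chr9:103305151-103305250, plus strand: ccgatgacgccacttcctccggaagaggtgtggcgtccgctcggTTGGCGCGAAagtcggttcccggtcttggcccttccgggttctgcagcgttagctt
Brca2, chr5:150522406-150522505, plus strand: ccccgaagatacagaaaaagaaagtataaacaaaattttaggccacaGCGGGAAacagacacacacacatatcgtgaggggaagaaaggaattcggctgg
In Topbp1 the capitals hold 2 runs that overlap, TTGGCGC on the gene's strand and the reverse of TTCGCGC. Lig4 has 2 entries in the promoter table, of which the first is shown. The run was present in the window of a gene with a positive difference such as Lig4 and in those of Brca2 and Fancm (-0.15) with negative ones. Blm (0.28) and Fancb (0.22) also had the run and passed their scanner errors. Rad1 (0.40), Chek1 (0.34) and Rad17 (0.21) passed theirs upwards without the run.

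Of the 8 listed core complex genes 7 had a probe, and 5 of these lay within their scanner errors. Fanca, a large scaffold of the complex, had a signal of 3221 on the PAD4-deficient array and 3389 on the wild-type array, a difference of -0.023. Fancl, the ubiquitin ligase subunit, had 2319 on the PAD4-deficient array and 2350 on the wild-type array, a difference of 0.031, and -0.036 by its second probe. Both differences were smaller than the scanner error of 0.20. Fancc, a subunit that pairs with FANCE and FANCF, had 756 on the PAD4-deficient array and 745 on the wild-type array, a difference of 0.07. Fancg, which binds FANCA, had 3055 on the PAD4-deficient array and 3005 on the wild-type array, a difference of 0.07. Its other probes gave 0.023 and -0.45, the last from signals of 118 on the PAD4-deficient array and 167 on the wild-type array, so the probes of Fancg disagreed. Fancm, the helicase-like protein that anchors the complex on DNA, had 365 on the PAD4-deficient array and 418 on the wild-type array, a difference of -0.15, and 0.012 by its second probe.

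Fance, the subunit that holds FANCD2 for modification, was the lowest of the 36 genes. Its only probe lies on chromosome 17 (mm8, 28054045 to 28054104) and read 7140 on the PAD4-deficient array and 9112 on the wild-type array, a difference of -0.30 (scanner error 0.20), or 0.811-fold. Fancb, the only member on the X chromosome, had 852 on the PAD4-deficient array and 757 on the wild-type array, a difference of 0.22 (scanner error 0.20) by its only probe. With arrays set to equal medians the value of Fancb was 0.17, within its error. These are the members of the core complex whose differences passed their scanner error, in opposite directions. Sex-linked transcripts differed beside Fancb: Xist, the RNA of the silenced X chromosome, read 16255 on the PAD4-deficient array but did not stand well above background on the wild-type one, and the Y-linked Ddx3y read 1297 on the PAD4-deficient array and 3455 on the wild-type array. The part of this in the value of Fancb was not tested.

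The 2 genes of the modified pair differed by less than their scanner errors. Fancd2 had 1133 on the PAD4-deficient array and 1205 on the wild-type array, a difference of -0.039, and -0.055 by its second measured probe. Fanci had 3131 on the PAD4-deficient array and 3230 on the wild-type array, a difference of 0.0048. The core complex had a median of 0.03 over its 7 genes and the pair -0.02.

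The BRCA proteins and their partners stayed within their errors by their brightest probes. Brca1, a ubiquitin ligase that acts at the start of recombination, had 1959 on the PAD4-deficient array and 1790 on the wild-type array, a difference of 0.18 (scanner error 0.20), with 0.011 at a dim second probe. Brca2, which acts in recombination and in fork protection, had 2998 on the PAD4-deficient array and 3471 on the wild-type array, a difference of -0.16, while its second probe gave 0.25 (scanner error 0.21), so the sign depended on the probe. Palb2, which links BRCA1 to BRCA2, was dim, with 100.4 on the PAD4-deficient array and 99.4 on the wild-type array and a difference of 0.06. Brip1, a helicase that binds BRCA1, had 1248 on the PAD4-deficient array and 1290 on the wild-type array, a difference of 0.0022, and 0.14 by its second probe.

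Among the strand exchange genes of recombination, Xrcc3 was the lowest. It had 962 on the PAD4-deficient array and 1157 on the wild-type array by its only probe, a difference of -0.22 (scanner error 0.20). Xrcc2 had 321 on the PAD4-deficient array and 346 on the wild-type array, a difference of -0.058, with 0.23 and 0.19 at its other measured probes. Rad51c, a dim gene, had 63.9 on the PAD4-deficient array and 59.4 on the wild-type array, a difference of 0.15 (scanner error 0.24). The recombination factor Rad52 had 819.9 on the PAD4-deficient array and 819.6 on the wild-type array, a difference of 0.05 after scaling. Rad54l, a motor protein of strand exchange, had 1070 on the PAD4-deficient array and 1032 on the wild-type array, a difference of 0.10. The 5 genes of this group had a median of 0.05.

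Blm and Wrn are RecQ helicases that unwind recombination intermediates. By their brightest probes both were higher on the PAD4-deficient array by more than their scanner errors, and the other RecQ genes were not. Among those, Recql differed by 0.15, Recql4 by -0.050 and Recql5 by -0.14, each within its scanner error. The second probe of Recql gave 0.21, in the same direction. Blm, the Bloom syndrome helicase, had 2389 on the PAD4-deficient array and 2039 on the wild-type array, a difference of 0.28 (scanner error 0.20). Wrn, the Werner syndrome helicase, had 274 on the PAD4-deficient array and 223 on the wild-type array, a difference of 0.34 (scanner error 0.21). A Wrn probe whose target overlaps that of the brightest one gave 0.39. The remaining measured probe, in another part of the gene, gave -0.067, so Wrn was higher by the overlapping probes and not by the separate one.

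The break sensors of the MRN complex stayed within their scanner errors by their brightest probes, with a median of 0.12, against 0.06 over the 36 genes. Nbn, the subunit that recruits ATM, had 6947 on the PAD4-deficient array and 6629 on the wild-type array, a difference of 0.12, and 0.063 by its second measured probe. Mre11a, the nuclease, had 2193 on the PAD4-deficient array and 1987 on the wild-type array, a difference of 0.19 (scanner error 0.20), but -0.14 and -0.15 at its other probes. Rad50, the subunit that bridges DNA ends, had 833 on the PAD4-deficient array and 826 on the wild-type array at its brightest probe, a difference of 0.06. Its second probe (mm8 chromosome 11, 53550017 to 53550076) gave 0.71 (scanner error 0.33) from signals of 40.3 on the PAD4-deficient array and 25.5 on the wild-type array. This was the widest disagreement between probes of a member, at 0.65.

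The chromatin and mediator genes of breaks differed by less than their scanner errors. H2afx encodes the histone variant H2A.X that ATM phosphorylates around a break, and had 27915 on the PAD4-deficient array and 28101 on the wild-type array, a difference of 0.04. Trp53bp1, which favours end joining over recombination, had 2588 on the PAD4-deficient array and 2787 on the wild-type array, a difference of -0.057, with -0.21 at a dimmer probe.

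The clamp that marks damaged forks, its loader and TOPBP1 had a median of 0.24 over 4 genes, and with arrays set to equal medians Rad9 lay below 0 (-0.031). Rad1, a clamp subunit, had 381 on the PAD4-deficient array and 298 on the wild-type array by its only probe, a difference of 0.40 (scanner error 0.21), or 1.32-fold. Its clamp partner Rad9 (Rad9a in current names) had 1039 on the PAD4-deficient array and 1056 on the wild-type array, a difference of 0.025, also by 1 probe. The clamp gene Hus1, among the further repair genes, had 676 on the PAD4-deficient array and 624 on the wild-type array. Its difference was 0.16 (scanner error 0.20), and its 3 probes ranged from -0.07 to 0.18. Rad17, the clamp loader, had 2172 on the PAD4-deficient array and 1938 on the wild-type array, a difference of 0.21, and 0.17 by its second probe. Topbp1, which activates ATR, had 4293 on the PAD4-deficient array and 3709 on the wild-type array, a difference of 0.26 (scanner error 0.20).

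Both effector kinases of the checkpoint were higher on the PAD4-deficient array by more than their scanner errors, and the difference of Atm was within its error. Chek1, which ATR activates, had 816 on the PAD4-deficient array and 669 on the wild-type array, a difference of 0.34 (scanner error 0.20), or 1.26-fold. Its second probe gave 0.36 from signals of 550 on the PAD4-deficient array and 445 on the wild-type array, so its probes gave nearly the same difference. Chek2, which ATM activates, had 523 on the PAD4-deficient array and 418 on the wild-type array, a difference of 0.37 (scanner error 0.20), with 0.16 at a dim second probe. Its promoter stretch, with the E2F-type run, is printed with that of Brca2. Atm had 884 on the PAD4-deficient array and 887 on the wild-type array, a difference of 0.044. A second Atm probe was printed in 10 spots and gave 0.17. Its unflagged spots ranged over 169 to 187 (8 spots, PAD4-deficient) and 149 to 182 (10 spots, wild-type), so the ranges overlapped.

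Of the end joining genes, the DNA-PK subunits differed by less than their scanner errors and the ligase by more. Xrcc5 and Xrcc6 encode the Ku proteins that hold broken ends. Xrcc5 had 4067 on the PAD4-deficient array and 4124 on the wild-type array, a difference of 0.03, and Xrcc6 had 2784 on the PAD4-deficient array and 2767 on the wild-type array, a difference of 0.06. Prkdc, the catalytic subunit, was printed in 10 spots that ranged over 1276 to 1381 on the PAD4-deficient array and 1200 to 1313 on the wild-type array, with a difference of 0.11. The log2 standard deviation of its spots was 0.033 on the PAD4-deficient array and 0.036 on the wild-type array. Its scanner error of 0.20 is a mean over spots and is not reduced for their number. Lig4, which seals the joined ends, was the highest of all 36 genes by difference. Its brightest probe (mm8 chromosome 8, 9970262 to 9970321) read 171 on the PAD4-deficient array and 121 on the wild-type array, a difference of 0.55 (scanner error 0.21), or 1.46-fold. Its second probe (mm8 chromosome 8, 9971468 to 9971527) had 92.4 on the PAD4-deficient array and 59.1 on the wild-type array, a difference of 0.70 (scanner error 0.23), so both probes had the same direction. Lig4 is dim: among the 5314 measured genes with signals under 200 on both arrays, 17.6% had a log2 difference of 0.32 or more and 6.02% reached 1.5-fold upwards.

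**Figure D3:**
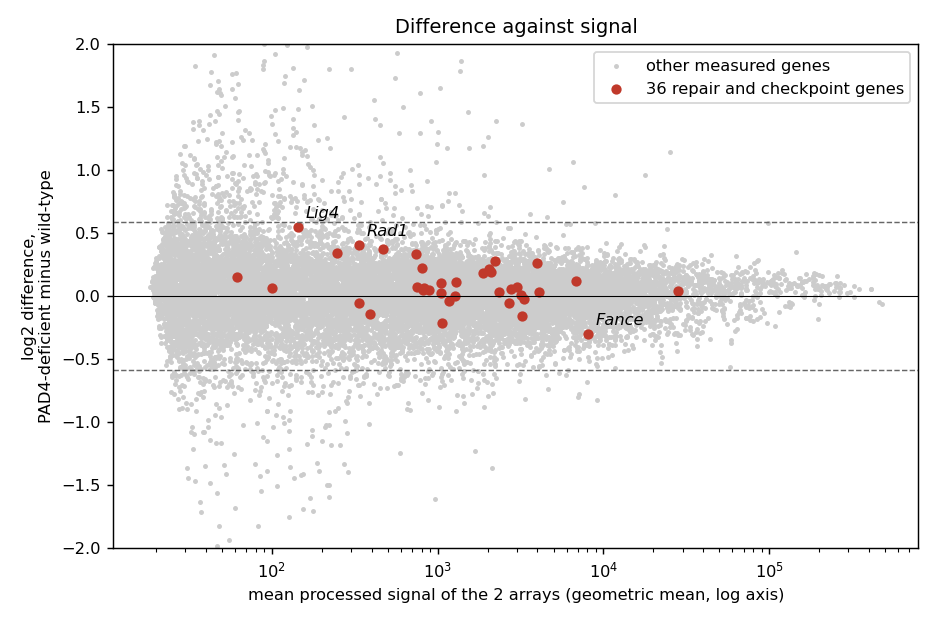
Log2 difference (PAD4-deficient minus wild-type) against the geometric mean of the signals on both arrays (log axis) for all 17020 measured genes in grey and the 36 repair and checkpoint genes in red, with 1.5-fold as dashed lines. The 36 points lie inside the cloud, from Fance at -0.30 to Lig4 at 0.55, and the cloud widens at low signals; 39 genes beyond 2 on the vertical axis are not drawn.

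Probes of the same gene were compared where 2 or more were measured. Of 20 such members 13 (65.0%) had all probes of the same sign, against 59.2% of 5883 such genes over the array. The probes of a member differed by a median of 0.15, and those of all genes by 0.18. Of the 68 member probes 8 were not well above background on both arrays and were not used.

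The wider repair machinery held no gene past 1.5-fold either. Of 114 further repair genes on the array 113 were measured, none was at least 1.5-fold higher (2.88% of all genes) or lower (1.87%), and the median was 0.07 with 73 above 0. Ercc6, a transcription-coupled repair ATPase, had the largest positive difference, 0.52 (214 on the PAD4-deficient array and 154 on the wild-type array). Dna2, a nuclease of end resection, followed at 0.47, with -0.07 at the lowest of its 3 probes. Ercc2, a helicase of nucleotide excision repair, had the largest negative one, -0.57 (226 on the PAD4-deficient array and 348 on the wild-type array), and Ddb1, a damage recognition subunit, had -0.47 (3042 on the PAD4-deficient array and 4370 on the wild-type array). The claspin gene Clspn, whose product binds CHEK1, had 0.32, and Atrip, the partner of the kinase ATR, had -0.24. By role, the medians lay between -0.03 for 7 other end joining genes and 0.13 for 11 translesion and postreplication genes.

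Cell cycle genes were read beside them, since many recombination and checkpoint genes are transcribed in S phase. The 30 G1/S and replication genes had a median of 0.07 and the 29 G2/M and mitosis genes 0.09, with no member 1.5-fold different in either list. Differences above 0 were seen for 17 G1/S genes (56.7%) and 25 G2/M genes (86.2%), against 77.8% of the 36 repair and checkpoint genes. A lean above 0 was therefore not particular to the repair and checkpoint genes. The 28 p53 and damage targets had a median of -0.04. Cdkn1a, the p21 inhibitor that p53 induces, had a difference of -0.61 from signals of 4308 on the PAD4-deficient array and 6826 on the wild-type array, and was the only target in that list past 1.5-fold.

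**Figure D4:**
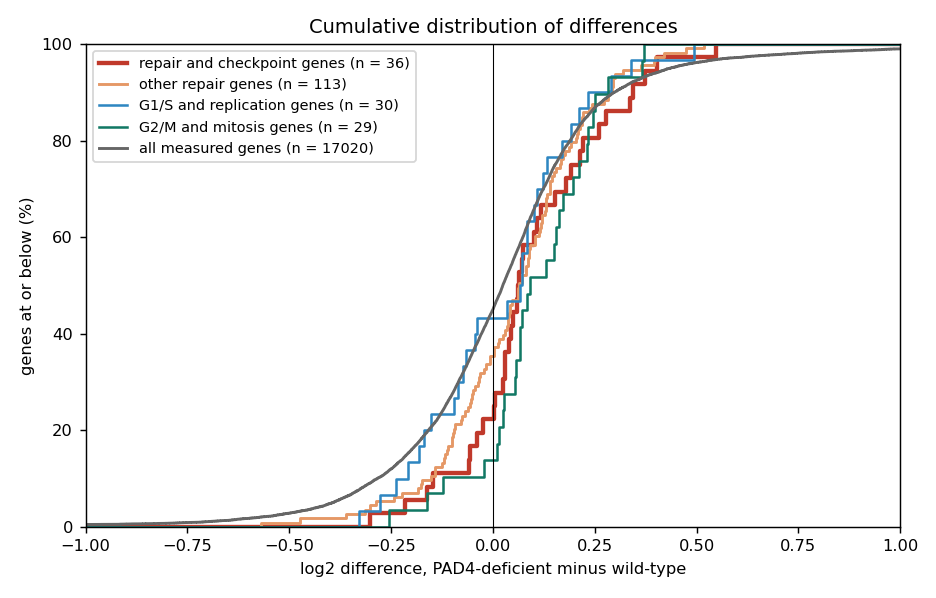
Cumulative share of genes (%) against the log2 difference (PAD4-deficient minus wild-type) for the repair and checkpoint genes, the other repair genes, the G1/S and G2/M genes and all measured genes. The medians of the 4 lists lie between 0.06 and 0.09, against 0.02 for all measured genes, and no list reaches past 1.5-fold.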

How the data were processed

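Expression was measured in LSK cells on 1-colour Agilent arrays of design 014868, 1 PAD4-deficient and 1 wild-type array. The deposited scanner files give intensity on a linear scale from Feature Extraction 9.5.3.1, with spatial and multiplicative detrending switched on and background correction switched off, and name the build mm8, per the file headers, which also put both arrays on 1 slide. The version in the submitters' processing notes is 9.5. The authors' deposited log2 values were set against the scanner values of each probe: for all 41174 probes they equalled the log2 median over its spots minus 9.62 (PAD4-deficient) or 9.67 (wild-type), within 0.001, so scale and direction are known. Their column medians were -3.53 and -3.59.

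Here log2 signals of unflagged spots were averaged per probe and the 75th percentile of each array was subtracted. Outlier spots and controls were left out, which removed 4 probes but none of a member. A probe was measured when well above background on both arrays, and the brightest measured probe gave the value of a gene. Probes were named by member name, RefSeq accession of GRCm38.p6, symbol or synonym. The members, lists and named genes were chosen with earlier results of these data known. Named genes were all members, the 2 largest differences per direction among the other repair genes, and list examples. Atrip, Clspn, Hus1, Flt3, Procr, Slamf1 and the other RecQ genes were picked with their values known. The steps were tested on simulated data. Python 3.11.15, numpy 2.4.6, pandas 2.3.3, statsmodels 0.14.6, and limma 3.58.1 in R 4.3.3 for normexp were used. Alternatives were other background corrections, scalings, probe rules, filters and folds.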

Additional observations from a re-analysis of the deposited data

How the results depend on the processing

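No paired analysis was possible because there was 1 array for each genotype, and no replicate could be left out. Over 12 alternatives the median difference of the 36 genes lay between 0.0072 (arrays set to equal medians) and 0.08 (mean over probes), against 0.06 in the main setting, and that of the other repair genes between 0.0094 and 0.08. The members' median exceeded that of all genes by 0.039 both in the main setting and with equal medians, and differed from it by -0.0019 with no filter on signal. The count of members at least 1.5-fold higher was 0 in the main setting, 1 with the mean over probes (Lig4), 2 with the dimmest measured probe (Lig4 and Rad50) and 5 at a log2 difference of 0.32; it was 0 under the other alternatives, as was the count of members 1.5-fold lower under each alternative and fold tried. Single genes moved by more than their scanner error only with other probe rules. With the dimmest measured probe 7 of 36 did, among them Rad50 (0.71), Brca2 (0.25), Mre11a (-0.15), Wrn (-0.067) and Fancg (-0.45). Some settings could not show such a move. The other array scalings shifted every gene by 0.056 or 0.012, less than any scanner error, and the filters left the value of each member they kept unchanged. Equal medians turned the sign of 8 genes near 0, by shifting all genes alike. Lig4 had 0.40 with normexp at an offset of 50, which shrinks dim probes by construction, and 0.51 at an offset of 0. Signal over background limits Lig4, Palb2 and Rad51c, whose signals were under 200 on both arrays.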
